A study of Mus musculus with 84 samples.

Results

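A pair of gated astrocyte preparations of healthy mice were compared, 3 RNA sequencing libraries against 3, taken from 84 libraries in the whole data set. Their sample labels and a supplementary table of the study disagree about what they hold. The first group carries the label SC_ACSA_pos_glast_neg, which stands for spinal cord cells that stained for ACSA-2 and not for GLAST, and the same 3 libraries are named hindbrain GLASTpos in that table. The second group carries the label HB_ACSA_pos_glast_pos, for hindbrain cells that stained for ACSA-2 and for GLAST, and these 3 libraries are named forebrain GLASTpos in the table. The members of both groups are given by these labels. They are called the SC-labelled libraries (SC1, SC2 and SC3) and the HB-labelled libraries (HB1, HB2 and HB3) here, since the markers described next did not follow the labels.

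Both groups came from wildtype mice of the FVB/N strain labelled as controls, without immunization or other treatment. The ages and sexes of the mice were not given in the sources used here. Live cells negative for CD11B and CD45, which mark myeloid cells, were sorted by FACS for surface ACSA-2, the product of Atp1b2, and for surface GLAST, the glutamate transporter encoded by Slc1a3. In the dissection, forebrain included the olfactory bulbs, hindbrain was cerebellum with brain stem, and spinal cord was its cervical and thoracic parts. A library could pool RNA of up to 2 mice. Nothing said that libraries of a group came from separate litters or sorting days, so that the p-values measure the spread between these libraries. The other acutely isolated FVB/N groups, used to share one estimate of the spread, were 3 libraries each labelled HB GLASTneg, FB GLASTneg and FB GLASTpos. Matching the counts of 500 genes to the columns of the table placed each of the 15 libraries on 1 column, with a largest deviation of 0.000492% against at least 87.8% for the next best column, and 12 of the 15 names differed from the label.

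Astrocytes differ by region. Bergmann glia are the astrocytes of the cerebellar cortex, whose cell bodies lie among the Purkinje cells and whose radial fibers ensheath Purkinje cell synapses. They are known for calcium-permeable AMPA receptors, for very high GLAST and for responding to Sonic hedgehog released by Purkinje cells. Astrocytes of the forebrain keep transcription factors of the dorsal and ventral telencephalon in which their progenitors arose, and spinal cord astrocytes keep posterior Hox genes.

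The SC-labelled libraries held 901490, 1031260 and 905763 counts and the HB-labelled libraries 1269316, 892881 and 1057056, and levels are given as CPM, counts scaled to a library of 1000000 after TMM normalization. The detection floor was set at 3 counts per library, which corresponds to 2.44 to 3.61 CPM, and covers counting error only. Between 8394 and 11444 genes lay above it, with the fewest in SC3. Libraries of a group correlated at 0.746 to 0.861 (SC-labelled) and at 0.873 to 0.908 (HB-labelled) across genes on the log2(CPM + 1) scale. Pairs of an SC-labelled and an HB-labelled library correlated at 0.730 to 0.861, overlapping the range within the SC-labelled group. Within that group SC3 was least like the others (0.746 with SC1 and 0.781 with SC2). SC1 stood apart with 24.3% of its counts from the mitochondrial genome, against 9.92% to 14% in the other 5 libraries, and with the highest sum of cerebellar neuron markers (956, 234 and 77.5 CPM in the SC-labelled libraries, 81.2, 96.8 and 118 CPM in the HB-labelled libraries). Of those 8 markers 2, Pvalb and Cbln3, were called higher by the rule given below. By that rule 2.19% of all genes tested were higher and 2.99% lower. The fitted fold was above 0 for 6 of the 8, with 5 higher and 1 lower at an unadjusted p under 0.05. Pvalb, the parvalbumin of Purkinje cells and interneurons, made up most of the sum in SC1, at 788 CPM. Cbln3 (edgeR quasi-likelihood test, adjusted p = 0.0159) lost its call without any single HB-labelled library (adjusted p 0.0728 to 0.084). The granule cell receptor subunit Gabra6 stayed at or under the floor in all 6 libraries. With 1 library left out, cerebellar neuron calls came to 1 higher without HB2 or HB3, 5 higher without SC3 and 1 lower without SC1. Summed myeloid markers overlapped between the groups (80.7, 130.5 and 23.8 CPM against 291, 338 and 112 CPM), with 1 of 11 called. Summed oligodendrocyte markers were higher in every SC-labelled library than in any HB-labelled one, with 2 of 12 called higher and 2 lower (2295 to 2828 CPM against 1381 to 2161 CPM). The sum did not follow most members, since the fitted fold was above 0 for 3 of the 12 and the median log2 fold change was -0.57. The 2 called higher were Gjc3 and Cnp, given below. Of the 7 neuron, 6 ependymal, 7 neural stem cell and 14 mitochondrial genes tested 0 were called by edgeR or DESeq2, and 1, 1, 1 and 9 of them had an unadjusted p under 0.05. With 1 library left out, at most 1, 2, 1 and 3 of them were called in either direction. Among 6 oligodendrocyte precursor and 7 endothelial and mural markers 1 each was lower, and both of these calls and that of the myeloid marker were at adjusted p 0.0456 to 0.049 and lost when single libraries were left out (adjusted p 0.076 to 0.283 without SC1, SC3, HB1 or HB2 for the myeloid Csf1r). The part of these markers, of depth and of mitochondrial counts in the results was not tested. In bulk libraries such as these, fewer cells of a type and less RNA per cell cannot be told apart.

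To check the labels, markers of each region were examined. The 16 posterior Hox genes tested, which mark spinal cord, summed to 1.20, 8.70 and 1.03 CPM in the SC-labelled libraries and to 1.62, 1.11 and 0 CPM in the HB-labelled libraries, so that the markers that define spinal cord were at or near 0 in the libraries labelled for it. The same sum was 865, 847 and 809 CPM in the libraries labelled HB GLASTneg, which the study's table names spinal cord GLASTneg. Slc1a3, the gene of the GLAST gate (ENSMUSG00000005360, chr15:8634124-8710764, minus strand), reached 10058, 11008 and 9422 CPM in the SC-labelled libraries and 5397, 6189 and 5867 CPM in the HB-labelled libraries. Atp1b2, the gene of the ACSA-2 gate, had 3422, 5759 and 6441 CPM against 4152, 3189 and 3718 CPM and was not called (adjusted p = 0.107). For Slc1a3 all 6 libraries lay above the means of the libraries labelled FB GLASTneg (4655 CPM), FB GLASTpos (1939 CPM) and HB GLASTneg (770.5 CPM). A GLAST-negative label for the SC-labelled libraries stood beside the highest Slc1a3 levels of the 5 groups. In the naming of the study's table both groups were sorted as GLAST-positive.

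Gdf10, a BMP-family ligand known from Bergmann glia, reached 1763, 2391 and 2568 CPM in the SC-labelled libraries and 74.7, 79 and 58.1 CPM in the HB-labelled libraries. Dmrta2, a DM-domain transcription factor of the dorsal telencephalon, showed the opposite pattern, with 3.61, 8.70 and 0 CPM in the SC-labelled libraries and 124, 123 and 142 CPM in the HB-labelled libraries. In neither gene did the groups overlap. The SC-labelled libraries were 4.99 ± 0.33 (SE) higher in Gdf10 on the log2 scale (edgeR quasi-likelihood test, adjusted p = 1.94e-23) and lower in Dmrta2 (log2 fold change -4.91 ± 0.61, -4.32 without SC3, adjusted p = 7.23e-10). Gdf10 and Dmrta2 were given as the markers of the pair, so that these values check the naming and are not an independent result.

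**Figure D1:**
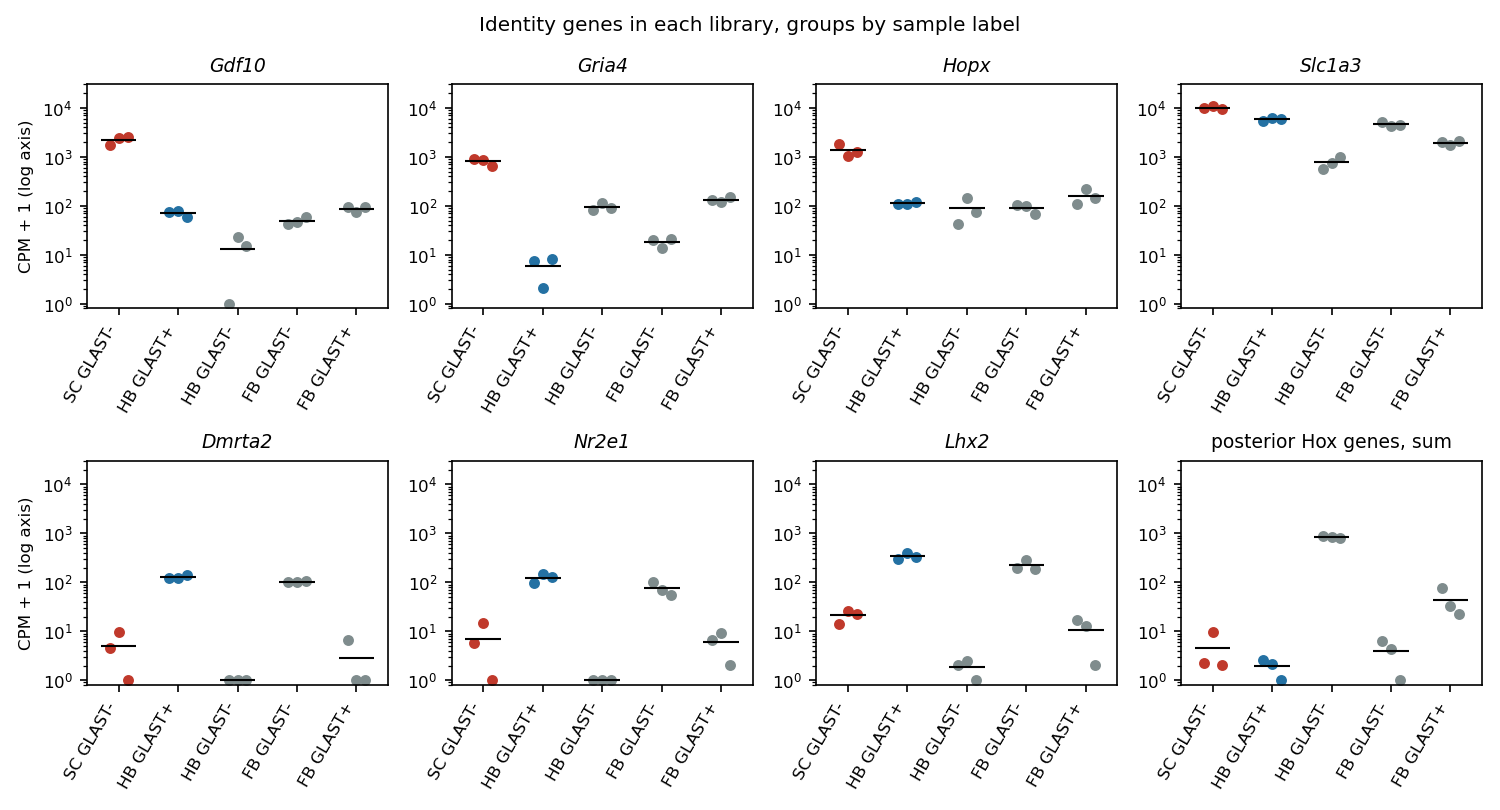
Levels of Gdf10, Gria4, Hopx, Slc1a3, Dmrta2, Nr2e1, Lhx2 and the summed posterior Hox genes in the 15 acutely isolated FVB/N libraries, in CPM + 1 on a log axis, 1 point per library and a line at the mean of each group of 3, with groups named by sample label. Gdf10 lies at 1763 to 2568 CPM in the red SC-labelled points and at 58.1 to 79 CPM in the blue HB-labelled points, while the Hox sum is high in the libraries labelled HB GLAST- and not in the red ones.

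The start-site regions of these 2 genes are shown because they are the markers by which the pair is told apart. Both sequences are the 250 bases before the RefSeq start on GRCm38.p6, both on the plus strand, for Gdf10 at chr14:33923337-33923586 and for Dmrta2 at chr4:109977775-109978024. Capitals mark matches on either strand to the GC box GGGCGG or to the CCAAT box CCAAT.
Gdf10: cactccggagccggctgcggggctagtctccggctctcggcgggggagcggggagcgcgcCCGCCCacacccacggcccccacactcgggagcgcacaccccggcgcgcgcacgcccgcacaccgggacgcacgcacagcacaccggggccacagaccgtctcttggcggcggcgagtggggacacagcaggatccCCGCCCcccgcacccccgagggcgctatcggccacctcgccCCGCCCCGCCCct
Dmrta2: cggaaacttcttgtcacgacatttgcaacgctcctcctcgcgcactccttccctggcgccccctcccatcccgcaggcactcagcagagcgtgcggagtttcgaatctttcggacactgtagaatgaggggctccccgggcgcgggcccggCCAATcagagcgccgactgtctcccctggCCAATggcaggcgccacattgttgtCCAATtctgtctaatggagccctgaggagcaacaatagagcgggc
The Gdf10 window was 78.8% G and C and held 4 GC boxes, all read from the minus strand, the last pair sharing 1 base. The Dmrta2 window was 61.6% G and C and held 3 CCAAT boxes and 0 GC boxes. GC boxes stood in 56.2% and CCAAT boxes in 34.6% of the 13555 windows of genes tested, against 52.8% and 33.6% of the 339 windows of genes called higher and 54.4% and 35.1% of the 461 windows of genes called lower. The homeodomain core TAATTA and the GLI motif TGGGTGGTC, searched on both strands, were found in neither window, and stood in 2.52% and 0.177% of the windows of genes tested. A match describes letters in the window and not a bound factor.

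Over all 14957 genes tested, 327 were called higher and 447 lower in the SC-labelled libraries, which is 2.19% and 2.99% of them. A gene was called where its Benjamini-Hochberg adjusted p from the edgeR quasi-likelihood test was under 0.05 and its log2 fold change was past 1 in either direction, and every gene count below uses this rule. Where leaving out 1 library moved the fold of a named gene by over 1.5 times, the log2 fold change without that library follows it, unless the libraries left in that group were all at or under the floor. The 2 groups did not overlap in 727 of the 774 called genes, whereas 19.6% of all genes tested did not overlap. The log2 fold change was past 2 in 190 of the higher and 209 of the lower genes. Of the called genes, 45 higher genes lay at or under the detection floor in all HB-labelled libraries and 69 lower genes in all SC-labelled libraries, and no fold is given for these other than a bound.

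**Figure D2:**
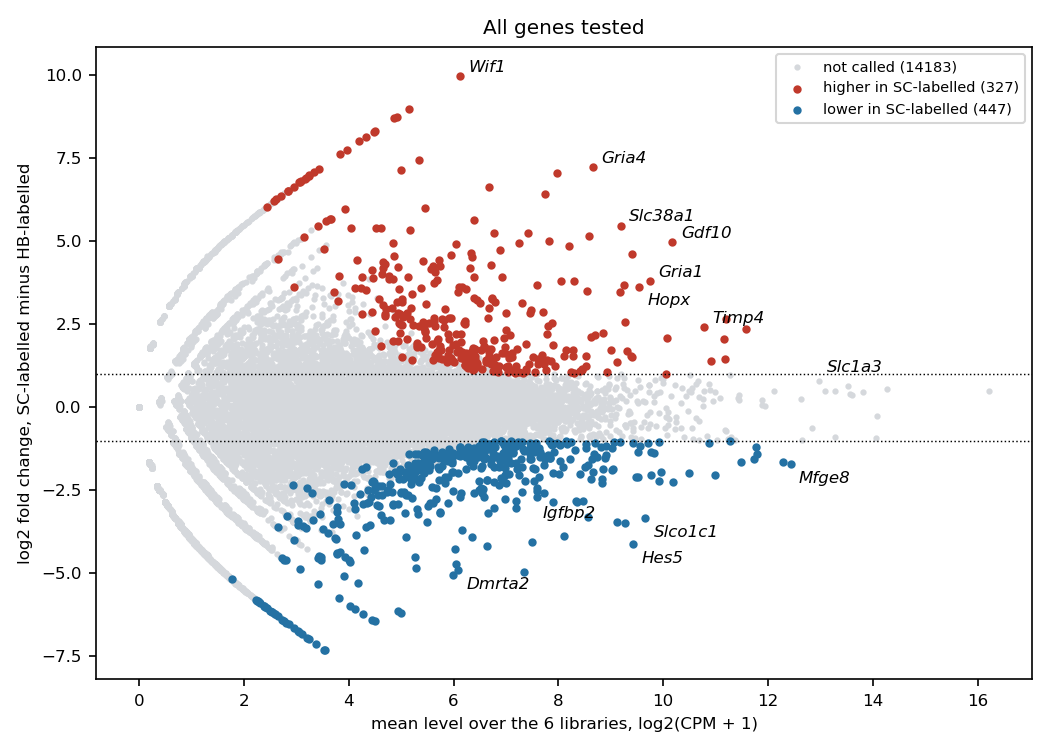
Fitted log2 fold change of SC-labelled minus HB-labelled libraries (y axis) against the mean level over the 6 libraries in log2(CPM + 1) (x axis) for 14957 genes, 1 point each, with dotted lines at the threshold of 1. The 327 red and 447 blue points are called genes, and the curved edges are genes at 0 in one group, whose fitted fold depends on the prior count.

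Among the higher genes named for the size of their fitted fold, 10 had counts in every SC-labelled library and none in the HB-labelled libraries, and since a fitted fold over 0 depends on the prior count, their order is no ranking. Wif1, a secreted inhibitor of Wnt ligands (ENSMUSG00000020218, chr10:121033960-121100650, plus strand), had 113, 200.03 and 99.2 CPM in the SC-labelled libraries and 0 in all 3 HB-labelled libraries, and was at least 48.3-fold higher. The same held for Ccn3, a matricellular protein (at least 24.2-fold), Hopxos, an antisense RNA at the Hopx locus (at least 20.5-fold), Cd70, a ligand of the tumor necrosis factor family (at least 19.8-fold), and Msx2, a homeodomain factor downstream of BMP (at least 15.2-fold). Further genes at 0 in all 3 HB-labelled libraries were Ctxn3 (at least 15-fold), Pdlim3 (at least 13.5-fold), Calcrl, the receptor subunit for CGRP and adrenomedullin (at least 12.2-fold), the GDNF receptor kinase Ret (at least 10.3-fold) and Dach2 (at least 9.34-fold). Dach2 lost its call without HB1 (adjusted p = 0.0598) or HB3 (adjusted p = 0.0536). Col2a1, the fibrillar collagen of cartilage, had 37.3, 112 and 85.8 CPM against 0, 1.11 and 0 CPM (adjusted p = 7.59e-07), and Ust, a sulfotransferase of dermatan sulfate, 26.5, 116 and 43.4 CPM against 0.812, 0 and 0 CPM (adjusted p = 8.23e-06), with 1 count in all over the HB-labelled libraries in each. Frrs1l, an auxiliary protein of AMPA receptor assembly, was among the 5 with the smallest p, at 669, 814 and 741 CPM against 21.9, 27.8 and 12 CPM (log2 fold change 5.17 ± 0.37, adjusted p = 3.50e-21).

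Of the 22 genes known from Bergmann glia, all of which were tested, 13 were called higher, 1 lower and 8 were not called, against 2.19% higher among all genes tested. The median log2 fold change was 2.95, or 2.24 with genes at the floor in one group set to their bound, against -0.12 and 0.00 over all genes tested. Summed over the list, the SC-labelled libraries held 26854, 27384 and 23871 CPM and the HB-labelled libraries 9492, 9764 and 9801 CPM. The means of the 3 other groups, 8489, 6362 and 5336 CPM, were also below every SC-labelled library. The list holds Slc1a3, the gate gene, and Gdf10, the given marker of the pair. Without both, 12 of 20 were called higher and 1 lower, and the sums were 15033, 13985 and 11882 CPM against 4021, 3496 and 3876 CPM. The lists were chosen with earlier results of these data known, so that these counts are not an independent result. Mybpc1 and Wif1, taken here as Bergmann glia markers, were named by the study as the most enriched in hindbrain in this experiment. With 1 library left out, Bergmann glia calls came to 2 lower without SC2.

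Hopx, an atypical homeodomain protein of radial glia and their descendants (ENSMUSG00000059325, chr5:77086988-77115121, minus strand), had 1826, 1048 and 1264 CPM in the SC-labelled libraries and 106, 109 and 117 CPM in the HB-labelled libraries (log2 fold change 3.64 ± 0.30, adjusted p = 1.13e-17). Its 3 SC-labelled values spread more than the HB-labelled ones, yet the groups lay far apart. Hopxos overlaps Hopx on the opposite strand and was called in the same direction, and the counting's use of strand was not stated, so that reads of both genes cannot be told apart with certainty. Sept4, a septin of the cytoskeleton, had 1296, 1601 and 1018 CPM against 62.5, 46.7 and 48.9 CPM (log2 fold change 4.62 ± 0.33, adjusted p = 4.74e-21). A2m, the protease inhibitor alpha-2-macroglobulin, had 447, 373 and 449.7 CPM in the SC-labelled libraries and 10.6, 2.23 and 0.923 CPM in the HB-labelled libraries (log2 fold change 6.41 ± 0.52, adjusted p = 3.74e-18). Mybpc1, a myosin-binding protein, followed with 182, 166 and 250.2 CPM against 0, 1.11 and 4.61 CPM (log2 fold change 6.63 ± 0.66, 6.01 without HB1, adjusted p = 7.66e-14).

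Dao, the D-amino acid oxidase that degrades D-serine, reached 625, 594 and 267 CPM in the SC-labelled libraries and was counted in 1 of the 3 HB-labelled libraries (9.75, 0 and 0 CPM, log2 fold change 7.05 ± 0.52, adjusted p = 2.53e-20). The metalloprotease inhibitor Timp4 (log2 fold change 2.41 ± 0.23, adjusted p = 7.77e-15) and the intermediate filament Vim (log2 fold change 3.50 ± 0.33, adjusted p = 7.77e-15) were higher in all 3 libraries, and the hyaluronan-binding chain Itih3 was called just past the threshold (log2 fold change 1.01) and was under it with 1 library left out (log2 fold change 0.92 to 0.94, adjusted p 0.000815 to 0.0117 without SC3 or HB1). Ptch1, the Hedgehog receptor and itself a Hedgehog target, had 765, 985 and 1236 CPM against 340.3, 310.4 and 363 CPM (log2 fold change 1.56 ± 0.24, adjusted p = 4.35e-07). Fzd2, a Wnt receptor, went the other way within the list, with 22.9, 87 and 128 CPM in the SC-labelled libraries and 626, 535 and 539.8 CPM in the HB-labelled libraries (log2 fold change -2.83 ± 0.32, adjusted p = 1.94e-11). Slc1a3 (log2 fold change 0.80 ± 0.19, adjusted p = 0.00152) and Sox2 (log2 fold change -0.90 ± 0.24, adjusted p = 0.00929) passed the adjusted p but not the fold threshold, and Fabp7, the brain lipid-binding protein of radial glia, had 484, 235 and 379 CPM against 287, 210.3 and 236 CPM (adjusted p = 0.27). The FGF-responsive factors Etv4 and Etv5 overlapped between the groups (adjusted p = 0.614 and 0.686).

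**Figure D3:**
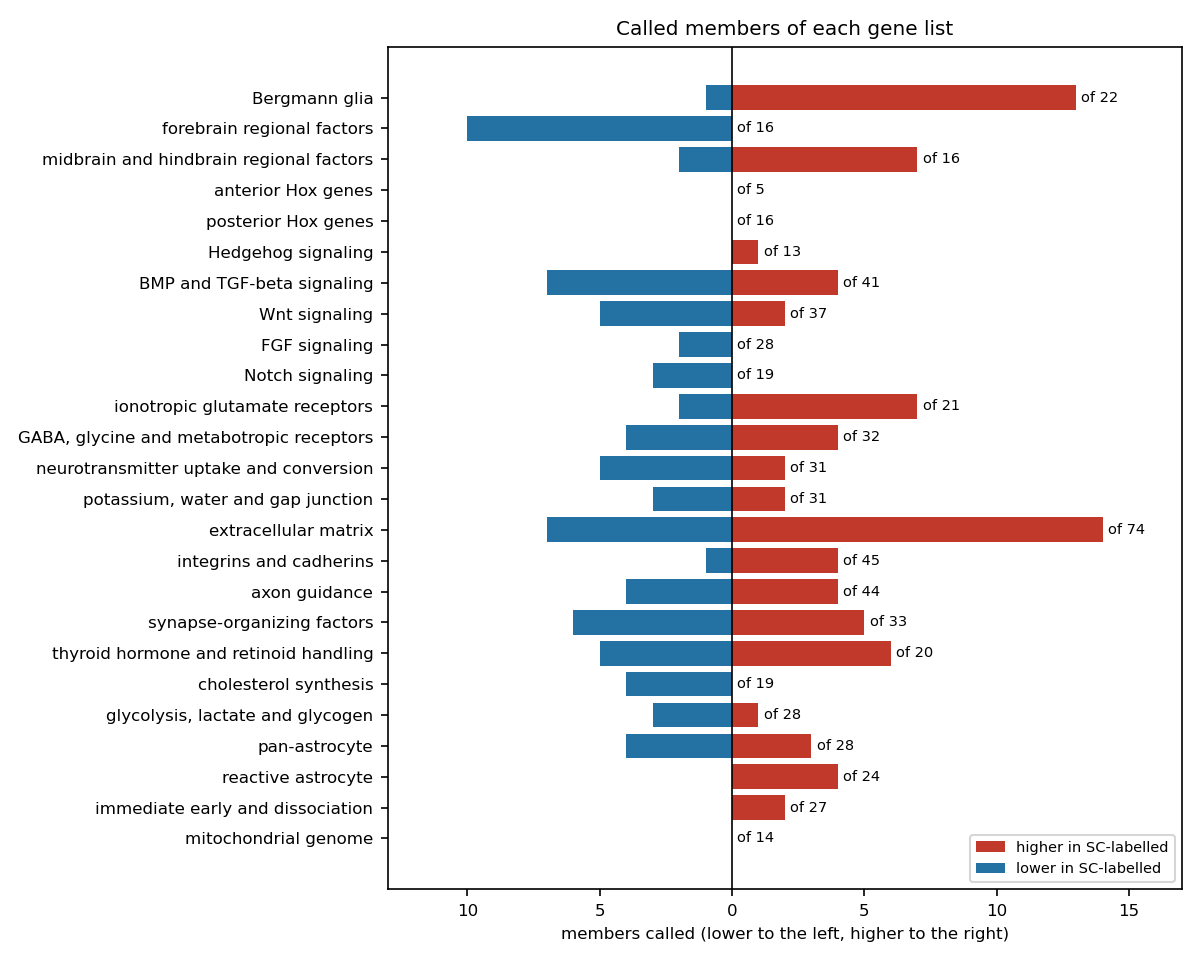
Number of genes called higher (red, to the right) and lower (blue, to the left) in the SC-labelled libraries for each gene list, with the number tested written beside each bar. The Bergmann glia list holds 13 higher and 1 lower of 22, and the forebrain list 0 higher and 10 lower of 16.

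Regional transcription factors of the forebrain were lower in the SC-labelled libraries. Of 24 factors on this list 16 were tested, of which 10 were called lower and 0 higher (edgeR quasi-likelihood test, 0 higher also at an unadjusted p under 0.05 and by DESeq2), against 2.99% lower among all genes. The median log2 fold change was -3.51, or -2.32 at the bound. Lhx2, a LIM homeodomain factor of cortical identity, had 13.2, 25.1 and 21.7 CPM in the SC-labelled libraries and 299.7, 389 and 329 CPM in the HB-labelled libraries (log2 fold change -4.06 ± 0.39, adjusted p = 1.37e-14). In SC3 Dmrta2 was at 0, whereas Lhx2 was read in all 3 SC-labelled libraries.

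Nr2e1, the orphan receptor of adult neural stem cells, was lower by a similar size (4.82, 13.5 and 0 CPM against 96.7, 145 and 126 CPM, log2 fold change -4.27 ± 0.61, -5.64 without SC2 and -3.67 without SC3, adjusted p = 6.51e-08). Six3 (log2 fold change -4.29 ± 1.06, adjusted p = 0.00373) and Emx2 (log2 fold change -2.74 ± 0.70, adjusted p = 0.00606) overlap antisense RNAs of the same locus. Fezf2, a specifier of deep-layer cortical neurons, was at 0, 0.966 and 0 CPM and 28.4, 22.3 and 46.1 CPM (adjusted p = 0.00101). Further lower calls were Nr2f2 (log2 fold change -1.43, adjusted p = 0.015) and Otx1 (log2 fold change -1.89, -3.10 without SC3, adjusted p = 0.0425). Calls lost by leaving out 1 library were Emx2 (adjusted p = 0.0669 without HB3), Nr2f2 (adjusted p 0.0681 to 0.0891 without SC2, HB1 or HB2) and Otx1 (adjusted p 0.0712 to 0.27 without SC1, SC2 or any HB-labelled library). Nr2f1, which patterns the caudal cortex, had 505, 667 and 483 CPM against 424, 468 and 475 CPM (adjusted p = 0.589), and Pax6 had 57.8, 27.1 and 53.8 CPM against 90.2, 67.9 and 93.2 CPM (adjusted p = 0.289).

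Factors of the midbrain and hindbrain moved mostly the other way, with 7 higher and 2 lower of 16 tested from a list of 27. That is 56.25% called, against 5.17% of all genes tested. Zic1, a zinc finger factor of cerebellar development, had 478, 535 and 476 CPM in the SC-labelled libraries and 24.4, 30.038 and 51.7 CPM in the HB-labelled libraries (log2 fold change 3.81 ± 0.36, adjusted p = 5.07e-15), and its neighbor Zic4, transcribed from the opposite strand of an overlapping locus, had 69.9, 94.7 and 89.9 CPM against 3.25, 0 and 0 CPM (log2 fold change 5.99 ± 0.93, adjusted p = 6.18e-07). Pax3, a paired-box factor of the dorsal neural tube, had 113, 173 and 348 CPM against 6.50, 0 and 9.23 CPM (log2 fold change 5.24 ± 0.53, 5.86 without HB3, adjusted p = 1.45e-13), its highest value lying in SC3. The Iroquois factors Irx1 (log2 fold change 4.06, 4.87 without HB1, adjusted p = 2.37e-08), Irx3 (log2 fold change 2.51, adjusted p = 0.000522) and Irx5 (log2 fold change 2.65, adjusted p = 0.00101) were higher, and Irx2 was not called (adjusted p = 0.735). En2, the engrailed factor of the midbrain-hindbrain boundary, had 15.7, 16.4 and 37.2 CPM against 0, 1.11 and 0 CPM (adjusted p = 0.00651). Its call was lost without HB1 (adjusted p = 0.0665) or HB3 (adjusted p = 0.0606). Meis2 was lower (33.7, 65.7 and 13.4 CPM against 192, 209 and 181 CPM, log2 fold change -2.35 ± 0.35, -3.02 without SC2, adjusted p = 2.71e-07), as was Otx2, a factor of forebrain and midbrain (1.20, 8.70 and 0 CPM against 22.7, 52.3 and 13.8 CPM, log2 fold change -3.05 ± 0.81, -2.36 without HB2, adjusted p = 0.00845). Otx2 lost its call without HB2 (adjusted p = 0.159). Of the 5 anterior and 16 posterior Hox genes tested 0 were called by edgeR or DESeq2, with 1 of each list higher at an unadjusted p under 0.05, and 4 and 15 of them were at or under the floor in all 6 libraries. With 1 library left out, midbrain and hindbrain calls came to 1 lower without HB2. In the same way, anterior Hox calls came to 1 higher without SC3. For the other list, posterior Hox calls came to 1 higher without SC1 or SC3.

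Ionotropic glutamate receptors were more often higher than lower, with subunits in both directions. Of 21 receptor and auxiliary subunits tested, 7 were called higher and 2 lower (42.9% called, against 5.17% of all genes tested). The fitted fold was above 0 for 13 of them and the median log2 fold change was 0.72. AMPA receptors are tetramers of GluA1 to GluA4, and the GluA2 subunit makes them impermeable to calcium. Gria4, which encodes GluA4 (ENSMUSG00000025892, chr9:4417896-4796234, minus strand), had 907, 854 and 657 CPM in the SC-labelled libraries and 6.50, 1.11 and 7.38 CPM in the HB-labelled libraries, a difference of 7.24 ± 0.40 on the log2 scale and the smallest p of all genes (adjusted p = 2.49e-28). Gria1, which encodes GluA1, had 1731, 1545 and 1549.6 CPM in the SC-labelled libraries and 117, 128 and 103 CPM in the HB-labelled libraries (log2 fold change 3.79 ± 0.26, adjusted p = 9.39e-22). Gria2, which encodes GluA2, was the other way round, with 135, 141 and 149.9 CPM in the SC-labelled libraries and 566, 606 and 747 CPM in the HB-labelled libraries (log2 fold change -2.17 ± 0.25, adjusted p = 3.79e-11). The 3 HB-labelled values of Gria4 rest on 8, 1 and 8 counts, and none of the 3 subunits overlapped between groups.

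Of the auxiliary subunits of the same list that were tested, Cacng4, Cacng5 and Neto2 were called higher and Cnih2, Cnih3 and Shisa9 were not called. Cacng5, a transmembrane AMPA receptor regulatory protein, had 455, 409 and 454 CPM in the SC-labelled libraries and 28.4, 0 and 10.1 CPM in the HB-labelled libraries (log2 fold change 5.01 ± 0.49, 6.33 without HB1, adjusted p = 2.50e-14), and Cacng4 of the same family had 225, 234 and 212 CPM against 37.4, 34.5 and 21.2 CPM (log2 fold change 2.84 ± 0.36, adjusted p = 7.05e-10). Grin3a, an NMDA receptor subunit, was higher (log2 fold change 1.498, adjusted p = 0.00627), whereas Grin2c, the GluN2C subunit of astrocytes and granule cells, was lower, with 31.3, 107 and 99.2 CPM against 634, 542 and 555 CPM (log2 fold change -2.85 ± 0.29, adjusted p = 4.44e-13). The kainate receptor auxiliary protein Neto2 was called higher (log2 fold change 2.82, adjusted p = 0.0372). Among these, calls lost by leaving out 1 library were Grin3a (adjusted p = 0.0726 without HB1) and Neto2 (adjusted p 0.0525 to 0.171 without SC2, SC3 or any HB-labelled library). Gria1 and Gria4 also stand on the Bergmann glia list.

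**Figure D4:**
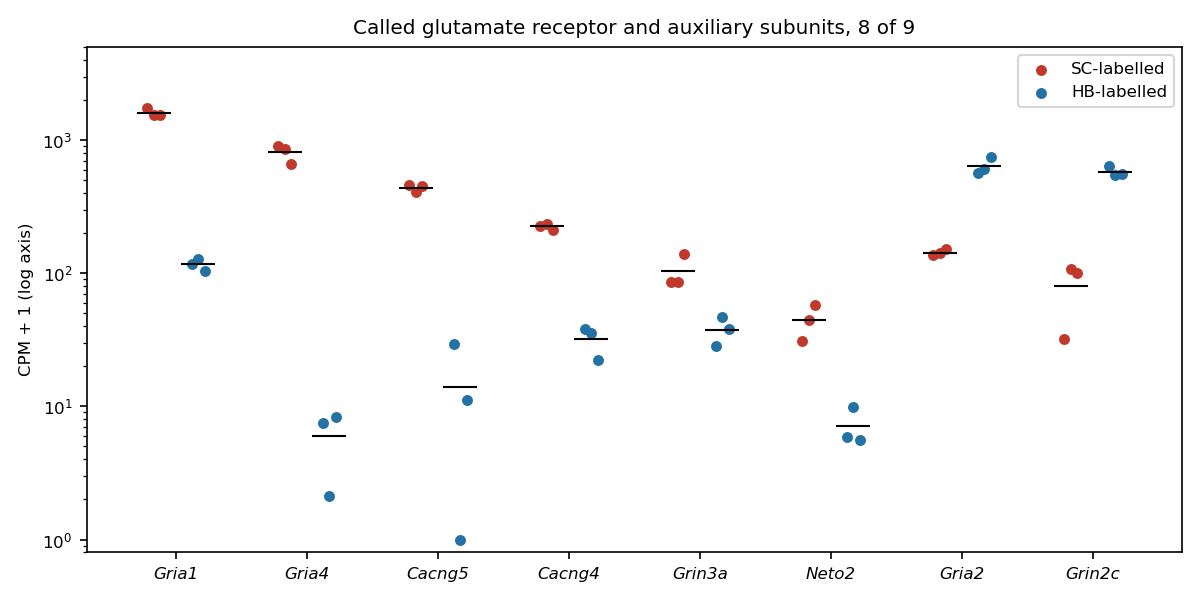
CPM + 1 on a log axis for 8 of the 9 glutamate receptor and auxiliary subunits that were called, with 1 point per library and a horizontal line at the mean of each group. The red SC-labelled points lie above the blue HB-labelled points for Gria1, Gria4, Cacng5, Cacng4, Grin3a and Neto2 and below them for Gria2 and Grin2c.

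Of 32 GABA, glycine and metabotropic receptors tested, 4 were called higher and 4 lower (25% called, against 5.17% of all genes tested). P2ry1, the ADP receptor, had 91.5, 159 and 163 CPM against 9.75, 4.45 and 20.3 CPM (log2 fold change 3.55 ± 0.41, 4.24 without HB3, adjusted p = 4.88e-11), and Gabra4 (log2 fold change 2.18, adjusted p = 3.47e-06), Gabra2 (log2 fold change 1.45, adjusted p = 0.00025) and the lysophosphatidic acid receptor Lpar1 (log2 fold change 1.82, adjusted p = 0.00581) were also higher. Gabra4 overlaps Gabrb1 on the opposite strand. Grm3, the mGluR3 receptor of mature astrocytes, had 48.2, 55.1 and 25.8 CPM against 175, 218 and 216 CPM (log2 fold change -2.23 ± 0.37, adjusted p = 2.34e-06), and the glycine receptor subunit Glrb was lower (log2 fold change -1.63, adjusted p = 0.000258). Both subunits of the GABA-B receptor were called lower, Gabbr1 (log2 fold change -1.10, adjusted p = 0.0013) and Gabbr2 (log2 fold change -1.16, -1.79 without SC3, adjusted p = 0.0162). Receptor calls lost by leaving out 1 library were Lpar1 (adjusted p 0.0539 to 0.0852 without SC1 or HB2), Gabbr1 (log2 fold change -0.99 to -0.95, adjusted p 0.00744 to 0.0239 without SC3 or HB2) and Gabbr2 (adjusted p 0.0564 to 0.192 without SC1, SC2, HB2 or HB3). Counted over the list with 1 library left out, receptor calls came to 2 lower without HB2.

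Among 31 genes of transmitter uptake and conversion, 2 were higher and 5 lower (22.6% called, against 5.17% of all genes tested). Slc38a1, a glutamine transporter, had 681, 1071 and 1666 CPM in the SC-labelled libraries and 35.7, 24.5 and 15.7 CPM in the HB-labelled libraries (log2 fold change 5.48 ± 0.35, adjusted p = 3.32e-24), and Dao, described above, was the other. Slc38a3, the glutamine transporter usual in astrocytes, was lower (277, 369 and 378 CPM against 1464, 1382 and 1374 CPM, log2 fold change -2.04 ± 0.22, adjusted p = 4.55e-12), so that these 2 transporters of the family differed in opposite directions. Glul, glutamine synthetase, had 1176, 2203 and 1803 CPM against 5647, 4377 and 5279.7 CPM (log2 fold change -1.56 ± 0.21, adjusted p = 3.85e-09), and the neutral amino acid transporter Slc1a4 was lower too (log2 fold change -1.85, adjusted p = 1.11e-08). Slc6a11, the GABA transporter GAT-3, had 582, 2047 and 3204 CPM in the SC-labelled libraries and 4979, 4847 and 5701 CPM in the HB-labelled libraries (log2 fold change -1.41 ± 0.23, adjusted p = 2.71e-06). Its lowest value was in SC1, and without that library the call was lost (log2 fold change -0.94, adjusted p = 2.07e-05). The cystine transporter Slc7a11 (log2 fold change -1.35, adjusted p = 0.000987) also lost its call with 1 library left out (log2 fold change -0.99, adjusted p = 0.0287 without SC1). Slc1a2, the glutamate transporter GLT-1, had 2763, 4473 and 5722 CPM against 8874, 8160.4 and 8583 CPM and lay just inside the fold threshold (log2 fold change -0.98). Counted over the list with 1 library left out, uptake and conversion calls came to 3 lower without SC1.

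For 31 genes of potassium, water and gap junctions the counts were 2 higher and 3 lower (16.1% called, against 5.17% of all genes tested). The sodium pump beta subunit Atp1b1 was lower (log2 fold change -1.52, adjusted p = 0.00254). Kcnk1, the tandem-pore potassium channel TWIK-1, had 32.5, 107 and 65.1 CPM against 742, 632 and 682 CPM (log2 fold change -3.31 ± 0.28, adjusted p = 2.53e-17), among the 5 smallest p values of lower genes. Kcnip3, a calcium-binding channel subunit, was higher (log2 fold change 1.54, adjusted p = 0.00117), and Kcnd2 lower (log2 fold change -1.46, adjusted p = 0.00787), the latter losing its call without SC1 (adjusted p = 0.0905) or HB2 (adjusted p = 0.121). The inward rectifier Kcnj10 had 569, 852 and 890.1 CPM against 641, 679.8 and 708 CPM (adjusted p = 0.708), and the water channel Aqp4 997, 1692 and 2022 CPM against 1015, 1026 and 1092 CPM (adjusted p = 0.0765). Neither passed the fold threshold. Counted over the list with 1 library left out, potassium, water and gap junction calls came to 6 lower without SC3.

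The extracellular matrix, the longest list, had the most called genes, 14 higher and 7 lower of 74 tested. That is 28.4% of them, against 5.17% of all genes tested, and several shorter lists held larger shares. The median log2 fold change was -0.36 (-0.16 at the bound). Tnc, tenascin C of radial glia and of the cerebellar molecular layer, had 85.5, 130.5 and 159 CPM in the SC-labelled libraries and 11.4, 13.4 and 5.54 CPM in the HB-labelled libraries (log2 fold change 3.62 ± 0.65, adjusted p = 2.02e-05). The matricellular Sparc (6091, 5353 and 3939.6 CPM against 1120.1, 903 and 993 CPM, log2 fold change 2.35 ± 0.21, adjusted p = 6.30e-16) and the related proteoglycans Spock2 (log2 fold change 2.88, adjusted p = 6.29e-11) and Spock3 (log2 fold change 4.92, adjusted p = 2.32e-10) were higher. Collagen chains Col9a2 (log2 fold change 4.73, adjusted p = 8.32e-11), Col9a3 (log2 fold change 3.19, adjusted p = 3.74e-08) and Col1a2 (log2 fold change 3.25, adjusted p = 1.81e-09) were higher as well, as were Adamts1 (log2 fold change 1.75, adjusted p = 0.00118), Lama2 (log2 fold change 1.74, adjusted p = 0.00615), Nid1 (log2 fold change 2.97, adjusted p = 0.0301) and Fmod (log2 fold change 3.08, adjusted p = 0.00799). Itih3, Timp4 and Ccn3, given above, completed the 14.

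The lower matrix genes included members of perineuronal nets. Bcan, brevican, had 347, 679 and 725 CPM in the SC-labelled libraries and 2476, 2065 and 2291 CPM in the HB-labelled libraries (log2 fold change -1.96 ± 0.22, adjusted p = 9.18e-12). Ncan, neurocan, had 41, 111 and 111 CPM against 623, 621 and 606 CPM (log2 fold change -2.81 ± 0.28, adjusted p = 8.16e-14), and Hapln1, the link protein that ties such proteoglycans to hyaluronan, had 12, 15.5 and 2.07 CPM against 284, 338 and 318 CPM (log2 fold change -4.97 ± 0.44, adjusted p = 2.74e-16). No library of one group reached the range of the other in any of the 3. Vtn, vitronectin, had 0, 0.966 and 0 CPM against 31.7, 23.4 and 22.1 CPM (adjusted p = 0.0011), and Efemp1 (log2 fold change -1.95, -2.92 without SC3, adjusted p = 0.0337), Ccn1 (log2 fold change -1.84, adjusted p = 0.0439) and Col27a1 (0 in all SC-labelled libraries, 5.69, 25.6 and 6.46 CPM in the HB-labelled libraries, adjusted p = 0.00949) made up the rest. Matrix calls lost by leaving out 1 library were Lama2 (adjusted p 0.0557 to 0.0666 without SC3 or HB1), Nid1 (adjusted p 0.0585 to 0.218 without SC2 or any HB-labelled library), Fmod (adjusted p = 0.0836 without HB2), Efemp1 (adjusted p 0.0577 to 0.199 without SC1, SC2 or any HB-labelled library) and Ccn1 (adjusted p 0.0521 to 0.186 without SC1, SC3 or any HB-labelled library). Col27a1 was lost without HB2 (adjusted p = 0.0972). Counted over the list with 1 library left out, matrix calls came to 4 lower without HB2.

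Adhesion and guidance molecules gave 4 higher and 1 lower of 45 integrins, cadherins and related proteins, and 4 higher and 4 lower of 44 guidance genes. The called shares were 11.1% and 18.2%, against 5.17% of all genes tested. The cadherin Cdh22 (264, 223 and 104 CPM against 8.12, 7.79 and 13.8 CPM, log2 fold change 4.29 ± 0.50, adjusted p = 4.67e-11), the protocadherin Pcdh20 (log2 fold change 3.42, adjusted p = 0.00231), the L1-family protein Chl1 (log2 fold change 1.55, adjusted p = 3.40e-06) and contactin 1, Cntn1 (log2 fold change 1.81, adjusted p = 2.17e-05), were higher. Pcdh19 was lower (6.02, 14.5 and 7.24 CPM against 66.6, 32.3 and 67.4 CPM, log2 fold change -2.55 ± 0.53, adjusted p = 0.000281). Of the guidance genes, the semaphorin receptor Plxna2 had 51.8, 91.8 and 156 CPM against 12.2, 6.68 and 19.4 CPM (log2 fold change 2.95 ± 0.61, adjusted p = 0.00027), the only higher one of the 4 that kept its call whichever single library was left out. The others were Efnb2 (log2 fold change 2.68, adjusted p = 0.00977), Sema3d and Plxnb3, the last pair at or under the floor in all HB-labelled libraries (adjusted p = 0.0385 and 0.0497). Ephb3, an ephrin receptor, was lower (log2 fold change -1.48, adjusted p = 0.000482), as were Efna2 (log2 fold change -1.45, adjusted p = 0.0163), Nrp1 (log2 fold change -1.56, -0.96 without SC1 and -2.21 without SC3, adjusted p = 0.00631) and Sema4a (log2 fold change -1.11, adjusted p = 0.0414). Guidance calls lost by leaving out 1 library were Efnb2 (adjusted p 0.0587 to 0.0965 without HB1 or HB2), Efna2 (adjusted p 0.098 to 0.0984 without SC1 or HB2), Nrp1 (adjusted p = 0.0712 without SC1), Sema4a (adjusted p 0.0932 to 0.265 without SC1, SC2 or any HB-labelled library), Sema3d (adjusted p 0.101 to 0.199 without SC3 or any HB-labelled library) and Plxnb3 (adjusted p 0.102 to 0.211 without SC3 or any HB-labelled library). With single libraries left out, integrin and cadherin calls came to 2 lower without HB1 and 3 lower without SC3. In the same way, guidance calls came to 1 higher without HB1 or HB2, 2 higher without SC3 or HB3, 2 lower without SC1 or HB2 and 7 lower without SC3.

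Factors by which astrocytes organize synapses were split, with 5 higher and 6 lower of 33 (33.3% called, against 5.17% of all genes tested). Sparc, which limits synapse formation, was higher as given above, with the glypican Gpc6 (166, 289.9 and 351 CPM against 85.3, 90.1 and 106 CPM, log2 fold change 1.52 ± 0.33, adjusted p = 0.000822), neurexin 3, Nrxn3 (log2 fold change 2.21, adjusted p = 0.000905), and Lrig1 (log2 fold change 1.70, 0.76 without SC3, adjusted p = 0.00444). Cbln1, the cerebellin secreted by granule cells, had 7.23, 2.90 and 53.8 CPM against 0.812, 0 and 0 CPM (adjusted p = 0.0105), most of it in SC3, and without that library the adjusted p was 0.226. Chordin-like 1, Chrdl1, a synapse-maturing factor of cortical astrocytes, had 9.64, 4.83 and 15.5 CPM in the SC-labelled libraries and 157, 125 and 174 CPM in the HB-labelled libraries (log2 fold change -3.92 ± 0.51, adjusted p = 3.34e-09). The glypican Gpc5 was lower (log2 fold change -1.57, -2.32 without SC3, adjusted p = 0.00148). Of genes that act in phagocytosis, Mfge8 (1822, 3629 and 2354 CPM against 9161, 7922 and 8251 CPM, log2 fold change -1.70 ± 0.22, adjusted p = 2.53e-09), Mertk (log2 fold change -1.15, adjusted p = 0.00103) and Gas6 (log2 fold change -1.04, adjusted p = 0.0461) were lower too. Calls lost by leaving out 1 library were Lrig1 (adjusted p = 0.336 without SC3), Mertk (log2 fold change -0.88, adjusted p = 0.0185 without SC1) and Gas6 (adjusted p 0.0578 to 0.346 without SC1 or any HB-labelled library). Cbln1 was also lost without HB2 or HB3 (adjusted p = 0.0701 and 0.0809). Counted over the list with 1 library left out, synapse-organizing calls came to 3 higher without SC3.

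Of the signaling pathways, Hedgehog and FGF signaling had shares of called genes near the 5.17% of all genes called in either direction. In Hedgehog signaling 1 of 13 genes tested, Ptch1, was called higher and 0 lower (edgeR, 2 lower at an unadjusted p under 0.05 and 0 by DESeq2). The target gene Gli1 was read at low levels, with 19.3, 23.2 and 0 CPM against 4.06, 0 and 5.54 CPM (adjusted p = 0.402). In BMP and TGF-beta signaling 4 of 41 were higher, among them Gdf10, and 7 lower. The ligands called lower were Bmp7 (12, 31.9 and 10.3 CPM against 135, 120.2 and 102 CPM, log2 fold change -2.69 ± 0.41, -3.37 without SC2, adjusted p = 3.54e-07), Inhbb (log2 fold change -3.24, -4.19 without SC2, adjusted p = 0.00647) and Tgfb2 (log2 fold change -2.29, adjusted p = 1.19e-07). Also lower were Ltbp1, which binds latent TGF-beta (log2 fold change -1.97, adjusted p = 0.000323), the antagonist Chrdl1, and the BMP target genes Id2 (log2 fold change -1.75, adjusted p = 2.53e-08) and Id3 (log2 fold change -1.07, adjusted p = 0.0121). The transducers Smad3 (189, 172 and 122 CPM against 11.4, 17.8 and 24.9 CPM, log2 fold change 3.15 ± 0.51, adjusted p = 2.13e-06) and Smad9 (log2 fold change 2.81, adjusted p = 0.0142) and the pseudoreceptor Bambi (log2 fold change 1.93, 2.88 without HB1, adjusted p = 0.0386) were higher. Calls lost by leaving out 1 library were Id3 (adjusted p 0.0868 to 0.141 without SC2 or HB3), Smad9 (adjusted p 0.0503 to 0.106 without HB2 or HB3) and Bambi (adjusted p 0.0622 to 0.252 without SC1, SC2, HB2 or HB3). With single libraries left out, Hedgehog calls came to 1 lower without SC3. In the same way, BMP and TGF-beta calls came to 2 higher without HB2 or HB3.

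In Wnt signaling 2 of 37 genes were higher and 5 lower (18.9% called, against 5.17% of all genes tested). The higher ones were Wif1 and the receptor Fzd1 (195, 282 and 164 CPM against 60.9, 26.7 and 37.8 CPM, log2 fold change 2.34 ± 0.40, adjusted p = 7.90e-06), and the receptors Fzd2, Fzd10 (6.02, 11.6 and 1.03 CPM against 34.9, 50.1 and 62.7 CPM, log2 fold change -2.94 ± 0.55, -3.77 without SC2, adjusted p = 4.46e-05) and Fzd9 (log2 fold change -1.45, adjusted p = 0.0021) were lower. Frzb, a secreted antagonist, was at 0 in all SC-labelled libraries and at 23.6, 1.11 and 25.8 CPM in the HB-labelled libraries (adjusted p = 0.00194). The ligand Wnt7a was at the fold threshold (log2 fold change -1.003, adjusted p = 0.0398) and its call was lost with 1 library left out (adjusted p 0.0751 to 0.28 without SC1 or any HB-labelled library). Notch signaling gave 3 lower (15.8%) and 0 higher of 19 (edgeR, 0 higher also at an unadjusted p under 0.05 and by DESeq2). Hes5, a Notch target of radial glia (ENSMUSG00000048001, chr4:154960923-154962371, plus strand), had 71.1, 90.8 and 61 CPM in the SC-labelled libraries and 802, 1174 and 1935 CPM in the HB-labelled libraries (log2 fold change -4.13 ± 0.31, adjusted p = 3.93e-20), the smallest p of the lower genes. Dner, a Notch ligand known from Purkinje cells (90.3, 78.3 and 56.9 CPM against 353, 319 and 292 CPM, log2 fold change -2.10 ± 0.29, adjusted p = 3.39e-08), and Hes1 (log2 fold change -1.21, adjusted p = 0.0122) followed, Hes1 losing its call with 1 library left out (adjusted p 0.0663 to 0.138 without SC1, SC2, HB1 or HB3). In FGF signaling 2 of 28 were lower and 0 higher (edgeR, 2 higher at an unadjusted p under 0.05 and 0 by DESeq2), Fgfrl1 (log2 fold change -1.23, adjusted p = 0.00146) and Flrt2 (log2 fold change -1.40, -3.53 without SC3, adjusted p = 0.0441), of which Flrt2 (adjusted p 0.109 to 0.298 without SC1, SC2, HB1 or HB3) depended on 1 library. With single libraries left out, Notch calls came to 7 lower without SC3. In the same way, FGF calls came to 1 lower without SC1 or HB3 and 4 lower without SC2.

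Genes that handle thyroid hormone and retinoids held a larger share of calls than all genes, 6 higher and 5 lower of 20 tested against 5.17% called in either direction. Those lower on the thyroid side were led by a transporter and an enzyme. Slco1c1, the thyroxine transporter OATP1C1, had 48.2, 214 and 172 CPM in the SC-labelled libraries and 1577, 1512 and 1309 CPM in the HB-labelled libraries (log2 fold change -3.34 ± 0.28, adjusted p = 1.50e-17), Dio2, the deiodinase that makes active hormone, had 51.8, 82.1 and 39.3 CPM against 368, 477 and 399.5 CPM (log2 fold change -2.84 ± 0.34, adjusted p = 1.24e-10), and Crym, a hormone-binding protein of the cytosol, had 2.41, 4.83 and 0 CPM against 57.7, 75.7 and 88.6 CPM (log2 fold change -4.84 ± 0.91, adjusted p = 5.04e-05). Ttr, transthyretin of the choroid plexus, was higher, with 2078, 765 and 311 CPM in the SC-labelled libraries and 338, 111 and 77.5 CPM in the HB-labelled libraries (log2 fold change 2.57 ± 0.38, 1.65 without SC1 and 3.48 without HB1, adjusted p = 1.77e-07), and was highest in SC1.

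On the retinoid side, the retinaldehyde dehydrogenase Aldh1a1 had 167, 72.5 and 208 CPM in the SC-labelled libraries and 5.69, 15.6 and 3.69 CPM in the HB-labelled libraries (log2 fold change 4.19 ± 0.49, 4.97 without HB2, adjusted p = 7.77e-11), and Cyp26b1, which degrades retinoic acid, had 54.2, 97.6 and 151 CPM against 12.2, 2.23 and 0 CPM (log2 fold change 4.27 ± 0.49, adjusted p = 3.85e-11). The retinol dehydrogenases Rdh10 (log2 fold change 1.88, adjusted p = 0.00479) and Rdh5 (log2 fold change 1.40, adjusted p = 0.01) and the receptor Rxra (log2 fold change 1.57, adjusted p = 0.0068) were higher, while the retinaldehyde reductase Dhrs3 was lower (21.7, 45.4 and 39.3 CPM against 206, 99 and 179 CPM, log2 fold change -2.18 ± 0.36, adjusted p = 2.71e-06). Of these, calls lost by leaving out 1 library were Rdh10 (adjusted p = 0.0713 without HB2) and Rdh5 (adjusted p 0.0624 to 0.128 without HB1 or HB2).

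Summed over the 19 genes of cholesterol synthesis, the SC-labelled libraries had 1667, 1884 and 1912 CPM and the HB-labelled libraries 4429, 4249 and 4684 CPM, without overlap. The fitted fold was above 0 for 0 of the 19 and the median log2 fold change was -0.80. Called higher were 0 of them (edgeR, 0 also at an unadjusted p under 0.05 and by DESeq2). Called lower were 4, which is 21.1% against 2.99% of all genes tested. These were the sterol methyl oxidase Msmo1 (399, 427 and 395 CPM against 1927, 1817 and 2016 CPM, log2 fold change -2.24 ± 0.22, adjusted p = 2.40e-14), Dhcr7 of the last step (log2 fold change -2.18, adjusted p = 1.46e-07), Mvd of the mevalonate steps (log2 fold change -2.12, adjusted p = 5.06e-07) and squalene epoxidase, Sqle (log2 fold change -1.23, adjusted p = 0.00516). Sqle lost its call with 1 library left out (adjusted p = 0.0852 without SC3). Among 28 genes of glycolysis, lactate and glycogen 1 was higher and 3 lower (14.3% called, against 5.17% of all genes tested). Hexokinase 2, Hk2, had 79.5, 89.9 and 116 CPM against 12.2, 3.34 and 3.69 CPM (log2 fold change 3.83 ± 0.75, 4.71 without HB1, adjusted p = 9.88e-05), whereas Pfkp (log2 fold change -1.86, adjusted p = 1.49e-06), Ppp1r3g, a glycogen-targeting phosphatase subunit (log2 fold change -2.77, -3.47 without SC2, adjusted p = 2.73e-07), and the glucose transporter Slc2a1 (log2 fold change -1.33, -2.18 without SC3, adjusted p = 0.00102) were lower. Slc2a1 lost its call without SC1 (log2 fold change -0.90, adjusted p = 0.0307).

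Genes shared by astrocytes of all regions were read in both groups, with 3 of 28 higher and 4 lower (25% called, against 5.17% of all genes tested). S100b, a calcium-binding protein, had 7339, 2751 and 2008 CPM in the SC-labelled libraries and 703, 602 and 602 CPM in the HB-labelled libraries (log2 fold change 2.66 ± 0.25, 1.94 without SC1, adjusted p = 7.51e-15), and Ndrg2 (log2 fold change 1.46, adjusted p = 1.07e-06) and the intermediate filament Gfap (56.6, 48.3 and 35.1 CPM against 21.9, 8.90 and 16.6 CPM, log2 fold change 1.53 ± 0.44, adjusted p = 0.0182) were higher. The secreted proteins Clu (log2 fold change -1.20, adjusted p = 1.32e-06) and Cst3 (log2 fold change -1.65, adjusted p = 5.69e-11), the carboxypeptidase Cpe (760.1, 1018 and 631 CPM against 3424, 3484 and 2941 CPM, log2 fold change -2.03 ± 0.21, adjusted p = 4.91e-13) and Glul were lower. Sox9 had 1003, 1683 and 1508 CPM against 1776, 1582 and 1929 CPM (adjusted p = 0.42), Aldh1l1 181, 195 and 209 CPM against 166, 156 and 119 CPM (adjusted p = 0.496) and Aldoc 7153, 7998 and 5547 CPM against 6187, 5328 and 5717 CPM (adjusted p = 0.467), and none of these 3 was called. Calls lost by leaving out 1 library were Ndrg2 (log2 fold change 0.91, adjusted p = 0.000483 without SC1) and Gfap (adjusted p 0.059 to 0.152 without HB2 or HB3).

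Of 24 genes known from reactive astrocytes 4 were higher and 0 lower (edgeR quasi-likelihood test, 2 lower at an unadjusted p under 0.05 and 0 by DESeq2), namely Vim, Gfap, S100a10 (155, 76.3 and 66.2 CPM against 8.12, 1.11 and 3.69 CPM, log2 fold change 4.42 ± 0.68, 5.25 without HB1, adjusted p = 5.33e-07) and Amigo2 (log2 fold change 1.47, adjusted p = 0.0461). Amigo2 lost its call with 1 library left out (adjusted p 0.0879 to 0.17 without SC1, SC2 or any HB-labelled library). Among 27 immediate early and dissociation genes 2 were higher, Ier3 (128, 108 and 135 CPM against 13.8, 17.8 and 32.3 CPM, log2 fold change 2.53 ± 0.53, adjusted p = 0.000357) and the heat shock protein Hsp90aa1 (log2 fold change 1.16, adjusted p = 0.0113), and 0 were lower (edgeR, 4 lower at an unadjusted p under 0.05 and 1 by DESeq2). Hsp90aa1 lost its call with 1 library left out (adjusted p 0.0726 to 0.122 without SC2 or HB3). The called share of the immediate early and dissociation list, 7.41%, was near the 5.17% of all genes tested, and that of the reactive astrocyte list was 16.7%. For these 2 lists with 1 library left out, reactive astrocyte calls came to 2 higher without HB2 or HB3. In the same way, immediate early and dissociation calls came to 1 higher without SC2 or HB3 and 1 lower without SC2 or SC3. In the oligodendrocyte list Gjc3, the connexin 29 gene, had 581, 456 and 668 CPM against 21.9, 13.4 and 23.1 CPM (log2 fold change 4.84 ± 0.36, adjusted p = 2.04e-20) and Cnp, which overlaps Dnajc7 on the opposite strand, 676, 1147 and 573 CPM against 357, 257 and 310.03 CPM (log2 fold change 1.37 ± 0.25, adjusted p = 2.78e-05). Mag (log2 fold change -1.42, -3.00 without SC2, adjusted p = 0.013) and Mal (log2 fold change -1.04, adjusted p = 0.0192) were lower, and both lost their calls with 1 library left out, Mag (adjusted p 0.0573 to 0.0991 without SC3, HB1 or HB3) and Mal (adjusted p 0.0852 to 0.233 without SC1, SC2 or HB1).

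Most lower genes named for the size of their fitted fold were at or near 0 in the SC-labelled libraries, and their order is no ranking either. Hgf, hepatocyte growth factor, was at 0 in all SC-labelled libraries and at 13.8, 27.8 and 23.1 CPM in the HB-labelled libraries, at least 6.73-fold lower, and Gm12925, an RNA antisense to Macf1, was at least 6.61-fold lower. With 1 or 2 counts over the SC-labelled libraries, Rpe65, the retinoid isomerohydrolase of the visual cycle, had 0, 1.93 and 0 CPM against 60.9, 49 and 73.8 CPM (adjusted p = 1.18e-06), Mir124-2hg, the host transcript of a neuronal miRNA, 0, 1.93 and 0 CPM against 56.9, 43.4 and 75.7 CPM (adjusted p = 2.51e-10), and Upp1, uridine phosphorylase, 1.20, 0 and 0 CPM against 51.2, 50.1 and 27.7 CPM (adjusted p = 1.28e-05). Gm11627, Prss56, Kcnk10, Tlr6 and Tpbgl showed the same picture, with at most 2.41 CPM in any SC-labelled library and 15.6 to 53.5 CPM in the HB-labelled libraries (adjusted p 2.72e-05 to 0.00733). Nptx2, a neuronal pentraxin that clusters AMPA receptors, had 3.61, 6.76 and 0 CPM in the SC-labelled libraries and 157, 111 and 95 CPM in the HB-labelled libraries (log2 fold change -5.06 ± 0.67, -4.47 without SC3, adjusted p = 4.42e-09). Igfbp2, an insulin-like growth factor binding protein, had 57.8, 93.7 and 126 CPM against 984, 1099 and 985 CPM (log2 fold change -3.46 ± 0.27, adjusted p = 3.52e-19), and the adhesion molecule Cadm1 53, 184 and 68.2 CPM against 1182, 1107 and 1108 CPM (log2 fold change -3.47 ± 0.28, -4.18 without SC2, adjusted p = 4.44e-18). Both were among the 5 lower genes of smallest p.

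The other 3 acutely isolated groups place these differences. Of the 327 higher genes, 269 (82.3%) had their highest mean of the 5 groups in the SC-labelled libraries, 32 in the libraries labelled HB GLASTneg and 26 in those labelled FB GLASTpos. Where the SC-labelled libraries were highest, the group labelled FB GLASTpos, which the study's table names hindbrain GLASTneg, came second for 169 genes (62.8%). Of the 447 lower genes, 255 (57%) were highest in the HB-labelled libraries, 91 in those labelled HB GLASTneg and 75 in those labelled FB GLASTneg. Where the HB-labelled libraries were highest, the group labelled FB GLASTneg came second for 220 genes (86.3%). Across 8515 genes the median absolute log2 difference between group means was 0.509 between the SC-labelled and HB-labelled libraries, 0.474 between the SC-labelled and FB GLASTpos-labelled libraries and 0.263 between the HB-labelled and FB GLASTneg-labelled libraries. These counts were not tested, since the direction of the first comparison enters them.

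Libraries of a second experiment, on C57BL/6J mice and counted in a separate table, gave values that the choice of the 2 groups did not use. Its unimmunized controls comprise 5 libraries labelled HB_AG, 5 labelled SC_A and 5 labelled HB_A, which the study describes as hindbrain GLASTpos, spinal cord GLASTneg and hindbrain GLASTneg astrocytes. Here the labels went with the Hox genes, whose posterior list summed to 844 ± 167 CPM (SD, n = 5) in SC_A and to 3.46 ± 3.87 CPM in HB_AG. The Bergmann glia list summed to 23251 ± 2289 CPM in HB_AG, 6103 ± 267 CPM in HB_A and 3145 ± 238 CPM in SC_A. Without Slc1a3 and Gdf10 these sums were 14287 ± 1139 CPM, 4668 ± 404 CPM and 2958 ± 261 CPM. The 2 tables were normalized separately, so that levels are set side by side only within each.

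Between HB_AG and SC_A, 1107 genes were called higher and 2116 lower of 18113 tested (6.11% and 11.7%). The second group differs from the FVB/N comparison, being spinal cord rather than the HB-labelled libraries. The titles of some HB_AG and SC_A libraries carry codes with the same number, so that mice may be shared. The fit took all libraries as independent. Gdf10 had 1724 ± 426 CPM against 5.02 ± 5.73 CPM (mean ± SD, log2 fold change 8.37, adjusted p = 2.83e-15). Gria4 had 1322 ± 136 CPM against 103 ± 13.1 CPM (log2 fold change 3.68, adjusted p = 2.95e-16), Cacng5 1289.6 ± 68 CPM against 12.9 ± 5.28 CPM (log2 fold change 6.65, adjusted p = 1.99e-19) and Slc38a1 3058 ± 539.7 CPM against 167 ± 19.992 CPM (log2 fold change 4.20, adjusted p = 9.08e-18). Hopx (716 ± 105 CPM against 58 ± 15.2 CPM) and Tnc (234 ± 67.2 CPM against 3.46 ± 3.26 CPM) were higher in HB_AG as well. Of the 327 genes called higher in the SC-labelled libraries, 187 (57.2%) were called higher and 24 (7.34%) lower in HB_AG, and of the 440 tested among the 447 lower genes, 18 (4.09%) were higher and 209 (47.5%) lower. The 187 shared genes are 16.9% of all genes called higher in HB_AG, and the 209 shared genes 9.88% of those called lower.

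**Figure D5:**
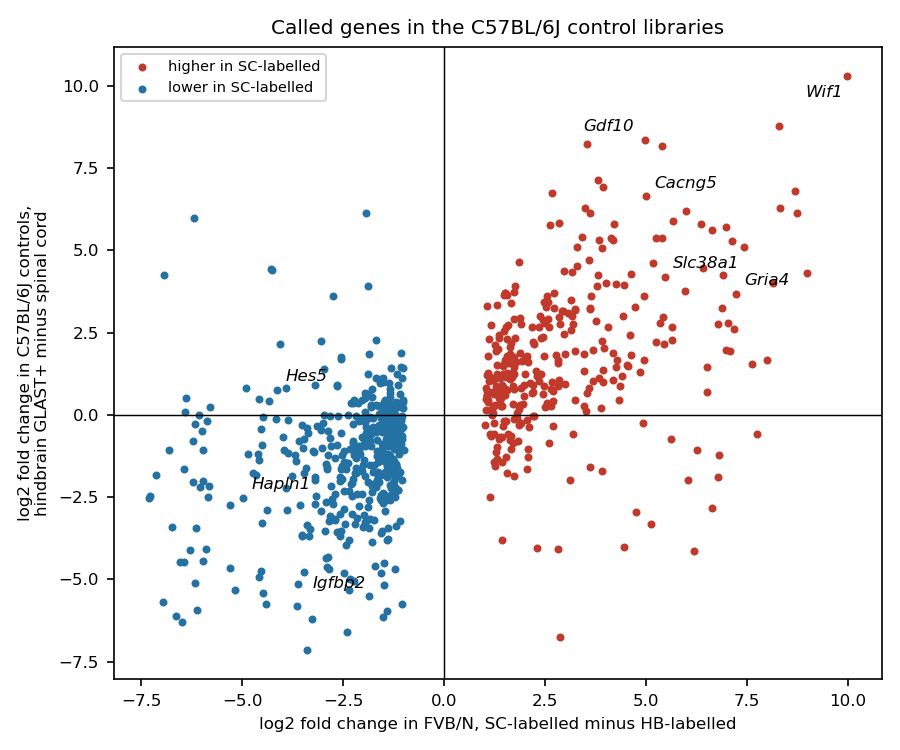
Log2 fold change of HB_AG minus SC_A in the C57BL/6J controls (y axis) against that of SC-labelled minus HB-labelled libraries in FVB/N (x axis), 1 point for each of the 327 higher (red) and 440 lower (blue) genes tested in both. Gdf10, at 4.99 and 8.37, lies in the upper right quadrant, and folds of genes near 0 in one group depend on the prior count.

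Genes higher in the HB-labelled than in the SC-labelled libraries could be followed in the same controls. Of these, Igfbp2 was low only in the SC-labelled libraries of FVB/N (mean 92.6 CPM, against 449 to 1022 CPM in the other groups). Hes5 had 47.5 ± 18.2 CPM against 27.6 ± 11.6 CPM (HB_AG against SC_A, log2 fold change 0.77, adjusted p = 0.035, not past the fold threshold), Slco1c1 16.2 ± 6.91 CPM against 207 ± 41.4 CPM (log2 fold change -3.68, adjusted p = 1.77e-13) and Grin2c 28.2 ± 11.8 CPM against 266 ± 75.3 CPM (log2 fold change -3.23, adjusted p = 1.03e-11). Gria2 had 81.5 ± 18.3 CPM against 168 ± 38.7 CPM (log2 fold change -1.04, adjusted p = 0.000148), and Hapln1 was read in 1 of the 5 HB_AG libraries (1.04 ± 2.33 CPM against 6.23 ± 5.79 CPM). Igfbp2 had 27 ± 9.01 CPM against 734 ± 142 CPM (log2 fold change -4.76, adjusted p = 2.02e-16), while Mfge8 had 754 ± 118 CPM against 157 ± 40.8 CPM (log2 fold change 2.27, adjusted p = 1.93e-11), higher in HB_AG and thus opposite in sign to the FVB/N comparison. Spinal cord and the HB-labelled libraries are different reference groups, so that the 2 signs are not a test of each other.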

How the data were processed

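Gated mouse astrocytes were profiled with 3' end RNA sequencing (QuantSeq). The authors aligned the reads with HISAT 0.1.5 to GRCm38 and counted them per gene with HTSeq 0.6.1p1 in union mode, and the deposited counts, whole reads per gene with no normalization, were used as they stand. The strand setting was not given in the sources used here. A 3' library gives about 1 read position per transcript, so that CPM compares a gene between libraries. Of 25773 gene IDs 25608 had a symbol. All columns were matched to samples by title. Groups followed the sample labels.

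Genes with 10 or more counts over the libraries of a fit were tested with the quasi-likelihood test of edgeR 4.0.16 (R 4.3.3, TMM scaling), for FVB/N in a fit of 15 libraries in 5 groups and for C57BL/6J in a separate fit of 15 unimmunized control libraries in 3 groups. P-values were adjusted over all genes tested by the Benjamini-Hochberg method. An exact permutation test of 3 against 3 libraries cannot go below 0.10, and none was used. The fitting code was tested on simulated data. The alternatives were a fit of the compared groups alone, DESeq2 size factors, 2 other filters, DESeq2 1.42.0 (Wald test, and test against a log2 fold change of 1), glmTreat of edgeR, the replicate number as a block, and each library left out.

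The genes named are the called members of the gene lists, genes the study names for these subtypes, other members described as not called, the 15 called genes of largest fold in each direction with no overlap and 10 CPM or more as the mean of the 6 libraries, and the 5 of smallest p in each direction. The comparison, its markers and the gene lists were chosen with earlier results of these data known. Gene coordinates are those of GENCODE M21 on GRCm38. Start-site sequences are from RefSeq. Some genes that the rule names are not reported here, and counts of called genes include them.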

Additional observations from a re-analysis of the deposited data

Results flagged for a closer look

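Of 44 groups of 5 C57BL/6J control libraries examined for named genes, 5 held a library whose gap to the nearest other, divided by the range of the group, was above Dixon's 95% critical value (0.71 for 5). Chance gives about 1 in 20 for independent, normally distributed values. Values at or near 0 and flags from the same library depart from this, so the rates were not compared. In HB_AG library 3, Kcnk1 was at 67.5 CPM (17.6 to 27.9 CPM in the other 4), Hapln1 at 5.22 CPM (0 in the other 4) and Mfge8 at 959 CPM (669.9 to 746 CPM in the other 4). In SC_A library 2, Chrdl1 was at 8.20 CPM (0 to 1.43 CPM in the other 4) and Ret at 12.6 CPM (0 to 3.54 CPM in the other 4). The groups of 3 FVB/N libraries are too small for this comparison.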

How the results depend on the processing

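With 892881 to 1269316 counts per library compared in FVB/N, genes under a few CPM could not be resolved. Of 182 named called genes, 0 changed sign under any alternative run, 86 kept their call under all of them and 125 under all except the 2 tests against a log2 fold change of 1. Against 327 higher and 447 lower genes, the fit of the 6 libraries alone gave 247 and 210, 94 and 84 passed the DESeq2 test whose null is a log2 fold change of 1, and glmTreat 131 and 137. The listed genes called, 78 higher and 80 lower, were 39 higher and 28 lower with that DESeq2 test and 48 and 43 with glmTreat, and 50 were lower in the fit of the 6 libraries alone. In the C57BL/6J controls (1107 higher, 2116 lower) that DESeq2 test gave 363 and 926 and glmTreat 494 and 1188. The tests against a log2 fold change of 1 are stricter by construction. The cause of the lower count in the smaller fit was not tested. Leaving out 1 library gave 223 to 438 higher and 307 to 526 lower genes in FVB/N, 64 to 86 higher and 62 to 101 lower listed genes, and 1018 to 1124 higher and 1825 to 2126 lower genes in C57BL/6J. Same-numbered FVB/N libraries did not deviate together (correlations of -0.0025, -0.0065 and 0.0226). Such correlations cannot tell whether these libraries share mice or sorting days. With the replicate block 310 genes were higher and 471 lower, and 1130 and 1949 in C57BL/6J. In the C57BL/6J titles, some HB_AG and SC_A codes with the same number differ in replicate number. Mice that may be shared were thus not modelled by this block.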
